A study of Mus musculus with 4 samples.

Results

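Transcript levels of 9 transcription factors that maintain hematopoietic stem cells (HSCs), namely *Hlf*, *Meis1*, *Mecom*, *Prdm16*, *Runx1*, *Erg*, *Fli1*, *Etv6* and *Gfi1b*, were examined in HSCs with and without *Id2*. The genes were chosen by symbol, with earlier results of these data known. Each had 1 row among the 19354 genes of the RNA-Seq table, and all 9 were among the 15895 genes whose mean reached 1 CPM (read count scaled to the library total). HSCs were sorted by flow cytometry as Lin- Sca1+ c-Kit+ (LSK) FLT3- CD48- CD150+ bone marrow cells. The *Id2*+/+ group was pooled from 14 *Mx1-Cre* *Id2*+/+ mice and the *Id2*Δ/Δ group from 15 *Mx1-Cre* *Id2*Fl/Fl mice, aged 8 to 16 weeks, in 2 experiments. Both groups carried the *Mx1-Cre* transgene and received polyinosinic:polycytidylic acid (pIpC), an inducer of interferon that switches on the Cre recombinase in blood cells and other interferon-responsive tissues, 2 weeks before sorting. Each group gave 2 libraries, labelled A and B and here called replicates 1 and 2. The labels do not say which experiment a letter marks or how animals were divided between libraries, so the p-values measure the spread between these libraries, which may be technical.

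HSC transcription factors act as a network. HLF is a PAR bZIP factor that is concentrated in HSCs and lost upon differentiation, and MEIS1 is a homeodomain protein that binds DNA with HOX partners. MECOM (EVI1) and PRDM16 are related zinc finger proteins required for HSC maintenance. RUNX1, ERG and FLI1 occupy shared enhancers with GATA2, TAL1, LYL1 and LMO2, a group called the heptad, while ETV6 and GFI1B act mainly as repressors. ID2 binds E proteins, which otherwise recognize the E-box CANNTG, and keeps them from DNA.

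The promoters of the 5 factors whose *Id2*Δ/Δ values all lay below their *Id2*+/+ values, given later, were read first, because the partners of ID2 bind E-boxes. RefSeq promoters on GRCm38.p6 matched 8 of the 9 genes with 12 start sites. The first bases after the start were found in a GENCODE transcript of the gene for all but the *Hlf* and the downstream *Runx1* starts. *Fli1* had no entry. The 250 bases before each start are printed 5′ to 3′ on the strand of the gene, with every E-box in capitals.
*Hlf*, chr11:90390918-90391167, minus strand: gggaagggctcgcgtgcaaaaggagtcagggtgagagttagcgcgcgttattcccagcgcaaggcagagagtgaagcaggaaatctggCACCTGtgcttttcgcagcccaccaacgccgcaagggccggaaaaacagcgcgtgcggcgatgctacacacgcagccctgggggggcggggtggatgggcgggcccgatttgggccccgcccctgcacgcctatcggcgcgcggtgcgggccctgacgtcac
*Meis1*, chr11:19018970-19019219, minus strand: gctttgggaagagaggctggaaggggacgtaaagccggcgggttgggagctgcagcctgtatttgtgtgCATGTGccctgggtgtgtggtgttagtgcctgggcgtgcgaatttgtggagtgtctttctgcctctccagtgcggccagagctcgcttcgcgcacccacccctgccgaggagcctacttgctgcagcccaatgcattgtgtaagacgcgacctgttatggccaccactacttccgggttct
*Mecom*, upstream start, chr3:30509760-30510009, minus strand: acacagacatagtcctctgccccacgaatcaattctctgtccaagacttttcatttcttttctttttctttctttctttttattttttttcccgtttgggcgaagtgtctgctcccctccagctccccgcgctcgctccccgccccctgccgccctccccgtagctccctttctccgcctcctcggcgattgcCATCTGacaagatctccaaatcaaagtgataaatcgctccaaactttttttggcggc
*Mecom*, downstream start, chr3:30013205-30013454, minus strand: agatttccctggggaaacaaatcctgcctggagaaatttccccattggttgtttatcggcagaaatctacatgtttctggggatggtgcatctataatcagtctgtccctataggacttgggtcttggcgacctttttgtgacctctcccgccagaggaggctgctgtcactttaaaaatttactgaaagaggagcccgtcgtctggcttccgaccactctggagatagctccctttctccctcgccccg
*Prdm16*, chr4:154636874-154637123, minus strand: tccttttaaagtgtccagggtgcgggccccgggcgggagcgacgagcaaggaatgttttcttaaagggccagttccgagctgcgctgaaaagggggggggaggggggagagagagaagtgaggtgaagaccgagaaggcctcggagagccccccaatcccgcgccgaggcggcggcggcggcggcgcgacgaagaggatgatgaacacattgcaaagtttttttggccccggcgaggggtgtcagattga
*Runx1*, upstream start, chr16:92826075-92826324, minus strand: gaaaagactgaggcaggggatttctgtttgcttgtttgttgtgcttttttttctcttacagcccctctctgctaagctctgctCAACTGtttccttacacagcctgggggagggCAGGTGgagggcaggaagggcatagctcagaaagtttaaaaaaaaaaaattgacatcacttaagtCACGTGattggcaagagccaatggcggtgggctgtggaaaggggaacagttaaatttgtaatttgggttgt
*Runx1*, downstream start, chr16:92697330-92697579, minus strand: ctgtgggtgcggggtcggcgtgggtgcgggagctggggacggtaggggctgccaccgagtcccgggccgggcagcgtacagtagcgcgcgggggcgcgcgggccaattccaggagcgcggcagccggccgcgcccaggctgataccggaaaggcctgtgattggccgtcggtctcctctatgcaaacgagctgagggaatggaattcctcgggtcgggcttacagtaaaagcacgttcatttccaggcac
The upstream *Runx1* start had 3 E-boxes, and those of *Hlf*, *Meis1* and the upstream *Mecom* start had 1 each. The promoters of *Prdm16*, the downstream *Mecom* start and the downstream *Runx1* start held none. Over all 12 member starts, 6 had at least 1 E-box, against 66.2% of 32851 promoters of the same length. The core bound by ETS factors, GGAA, was in 11 of the 12 starts and in 93.4% of all promoters, and the core GATA was in 7 and in 53.6%. TGTGGT, the RUNX core, was in 1 start, that of *Meis1*, and in 14.0% of all promoters. TGACAG, bound by MEIS proteins, was in 2 starts and in 15.9% of all. ACGTG, the HIF core, was in 3 starts and in 16.6% of all, and the upstream *Runx1* start holds it on both strands within the E-box CACGTG. All motifs were searched on both strands, and a match describes letters, not binding.

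The targeted gene was not detected in the *Id2*Δ/Δ libraries, with 93 and 98 reads for *Id2* in *Id2*+/+ HSCs and 0 reads in both *Id2*Δ/Δ libraries, at least 36.6-fold lower when 3 reads are allowed for a count of 0. The depth behind these values was about 14200000 and 15700000 reads in *Id2*+/+ and 17800000 and 18800000 reads in *Id2*Δ/Δ libraries. All 8 HSC marker genes had values, and their summed level was 3636 to 3778 CPM in *Id2*+/+ and 2460 to 3023 CPM in *Id2*Δ/Δ libraries. Of the neutrophil markers, 7 of 7 had values, and their sum was higher in the replicate 1 libraries, 141 and 108 CPM, than in the replicate 2 libraries, 51.9 and 25.7 CPM. Of 5 B cell markers 2 had a row, at a summed 33.6 to 51.0 CPM that came mostly from *Cd79b*, at 5.06 to 5.67 log2 CPM in the 4 libraries, while *Cd79a*, *Ebf1* and *Pax5* had none. Of 4 T cell markers 1 had a row, *Cd4*, at 1.38 to 3.40 CPM. Macrophage and monocyte markers, 3 of 4 with a row, summed to 37.6 to 49.1 CPM, and endothelial markers, 3 of 4, to 87.3 to 117 CPM. RNA of 2 genes whose proteins the sort excluded was present, *Flt3* at 5.47 to 5.63 and *Cd48* at 1.40 to 3.04 log2 CPM. The part of other cells in the results was not tested. Exons of *Meis1*, *Mecom*, *Prdm16*, *Runx1* and *Etv6* overlap those of other annotated genes. The summed level of these genes was from 2.26% of the level of the member for *Prdm16* to 10.4% for *Meis1*. In the shared bases, reads of these 5 members cannot be told apart from those of the overlapping genes, as strand use is not known. *Gm37818*, which overlaps *Meis1*, lies on the same strand, so strand would not separate its reads in the shared bases. In bulk RNA, fewer cells that express a gene and less of its RNA per cell cannot be told apart.

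The factors covered a wide range of levels. On the scale of CPM per kb of the longest annotated transcript, averaged over the 4 libraries, *Meis1* was highest at 125 CPM per kb, above 97.6% of the tested genes with a known length. *Hlf* followed at 93.4, *Etv6* at 86.5 and *Fli1* at 74.0 CPM per kb. *Mecom* and *Gfi1b* were nearly equal, at 47.7 and 47.2. *Runx1* stood at 36.3, *Erg* at 33.2 and *Prdm16*, at 7.81 CPM per kb, was the lowest of the 9. The libraries of *Hlf* and *Etv6*, of *Etv6* and *Fli1*, of *Mecom* and *Gfi1b*, and of *Runx1* and *Erg* overlapped, so these neighbours in the order did not separate, whereas *Prdm16* lay below every library of the other genes. The order depended on the length used. With the union of exons *Mecom* moved from rank 5 to 7 and *Erg* from rank 8 to 6, because the annotation gives *Mecom* 12427 and *Runx1* 12025 bases of exon in all, against 5692 and 5861 in the longest transcript.

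**Figure D1:**
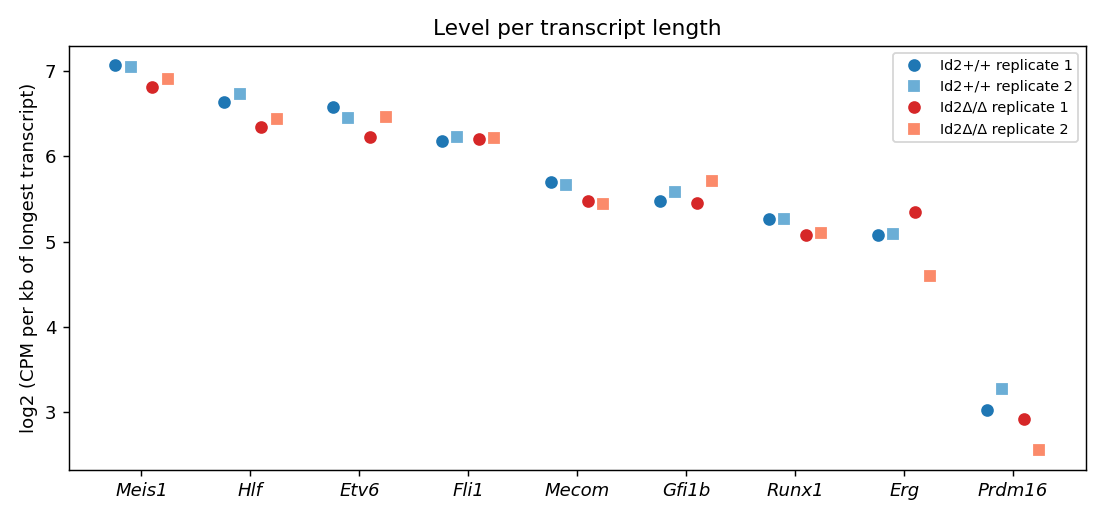
Level of each gene in each of the 4 libraries, as log2 of CPM per kb of longest transcript, ordered by the mean. *Meis1* leads at 6.81 to 7.07 and *Prdm16* is last at 2.56 to 3.27.

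The comparison of genotypes asked whether loss of *Id2* changed these transcripts. *Hlf*, *Meis1*, *Mecom*, *Prdm16* and *Runx1* were lower in both *Id2*Δ/Δ libraries than in both *Id2*+/+ libraries, by a log2 CPM of 0.17 for *Runx1* at the least and 0.41 for *Prdm16* at the most. *Erg*, *Fli1*, *Etv6* and *Gfi1b* overlapped between the genotypes. None of the 9 had an adjusted p-value under 0.05 in limma with Benjamini-Hochberg adjustment over all 15895 genes, where 0.0% of genes passed and no gene reached below 0.910. The unadjusted p-value was under 0.05 for 1 of the 9, *Hlf*, against 742 genes or 4.67% of all, and with the replicate letter as a block for 2 of the 9, *Hlf* and *Prdm16*, against 5.82% of all. Both *Id2*Δ/Δ values lay below both *Id2*+/+ values in 5 of 9 factors, and in 15.8% of all tested genes. In 0 of 9 did both lie above, against 19.0% of all. These shares are no test of the 9, which were chosen with earlier results of these data known. The 5 also have long transcripts, and length is taken up below. The median log2 difference was -0.17 over the 9 factors and 0.01 over all tested genes.

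**Figure D2:**
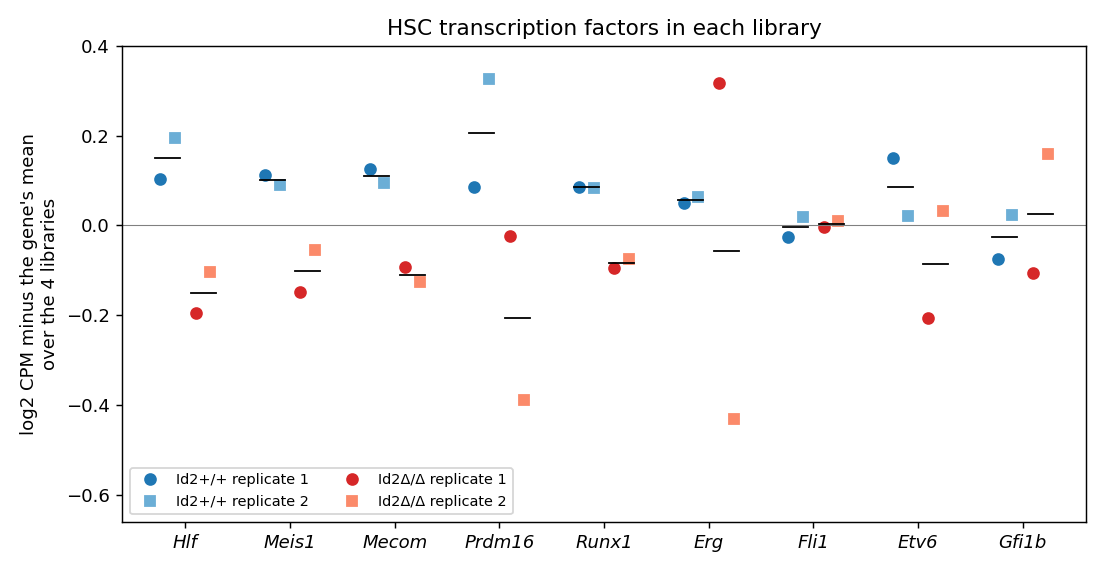
Level of each gene in each library as log2 CPM minus the mean of the gene over the 4 libraries, with a bar at the mean of each genotype. The red *Id2*Δ/Δ points lie below the blue *Id2*+/+ points for *Hlf*, *Meis1*, *Mecom*, *Prdm16* and *Runx1*, and the *Id2*Δ/Δ points of *Erg* lie at 7.05 and 6.30 log2 CPM, far apart.

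*Hlf* (ENSMUSG00000003949.16, chr11:90336536-90390895, minus strand), whose product marks the most primitive HSCs, had the smallest p-value of the 9. Its level was 9.14 and 9.23 log2 CPM in the *Id2*+/+ libraries and 8.84 and 8.93 log2 CPM in the *Id2*Δ/Δ libraries, or about 8002 to 9397 reads in a library. The gap between genotypes exceeded that between replicates, which was 0.09 in each genotype. The log2 difference was -0.30 (standard error 0.10, 95% interval -0.53 to -0.06, unadjusted p = 0.0190, adjusted p = 0.910, limma), so *Hlf* in *Id2*Δ/Δ HSCs was at 0.813 times the *Id2*+/+ level. It was -0.30 between the libraries labelled A and -0.30 between those labelled B.

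*Meis1* (ENSMUSG00000020160.18, chr11:18879817-19018985, minus strand), the cofactor of HOX proteins, was the most abundant of the 9. It stood at 9.99 and 9.96 log2 CPM in *Id2*+/+ and at 9.73 and 9.82 log2 CPM in *Id2*Δ/Δ libraries. The *Id2*+/+ values were almost equal, and both *Id2*Δ/Δ values were lower. Its log2 difference was -0.20 (standard error 0.09, 95% interval -0.42 to 0.01, adjusted p = 0.910, limma), and -0.26 between the A and -0.14 between the B libraries.

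The PRDM members *Mecom* and *Prdm16* differed in level and in how well replicates matched. *Mecom* (ENSMUSG00000027684.16, chr3:29951296-30548008, minus strand) had 8.21 and 8.18 log2 CPM in *Id2*+/+ and 7.99 and 7.96 log2 CPM in *Id2*Δ/Δ HSCs, with replicates within 0.03 of each other in both genotypes. The log2 difference was -0.22 (standard error 0.10, 95% interval -0.46 to 0.02, adjusted p = 0.910, limma). The gene has starts for both the long form with a PR domain and the shorter EVI1, and the gene-level values do not separate them. *Prdm16* (ENSMUSG00000039410.16, chr4:154316125-154636873, minus strand) had 6.13 and 6.38 log2 CPM in *Id2*+/+ and 6.02 and 5.66 in *Id2*Δ/Δ HSCs, from about 952 to 1300 reads in a library. Its log2 difference of -0.41 (standard error 0.18, 95% interval -0.83 to 0.00, adjusted p = 0.910, limma) was the largest of the 9, but the replicates differed by 0.24 and 0.36. Between the A libraries it was -0.11 and between the B libraries -0.72, and without *Id2*Δ/Δ replicate 2 it was -0.23.

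*Runx1* (ENSMUSG00000022952.16, chr16:92601466-92826149, minus strand), which binds DNA with CBFβ and is needed for HSCs to form in the embryo, varied least between replicates among the 5. It had 7.82 and 7.81 log2 CPM in *Id2*+/+ and 7.64 and 7.66 log2 CPM in *Id2*Δ/Δ HSCs. The log2 difference was -0.17 (standard error 0.11, 95% interval -0.42 to 0.08, adjusted p = 0.910, limma). Since limma takes much of its spread from genes of like level, the standard error was larger than the replicate differences of *Runx1* itself, 0.003 and 0.02.

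The ETS members *Fli1* and *Erg* differed in how far their libraries spread. *Fli1* (ENSMUSG00000016087.13, chr9:32422204-32542861, minus strand) had 7.91 and 7.96 log2 CPM in *Id2*+/+ and 7.94 and 7.95 log2 CPM in *Id2*Δ/Δ HSCs. The 4 libraries spanned less than for any other of the 9, and the log2 difference was 0.01 (standard error 0.11, 95% interval -0.24 to 0.25, adjusted p = 0.996, limma). Its closest relative *Erg* (ENSMUSG00000040732.18, chr16:95359169-95586593, minus strand) had 6.78 and 6.79 log2 CPM in *Id2*+/+ HSCs but 7.05 and 6.30 log2 CPM in *Id2*Δ/Δ HSCs. One *Id2*Δ/Δ library thus lay above and the other below both controls, 0.75 apart, and 17.7% of tested genes had a larger gap between the *Id2*Δ/Δ libraries. For *Erg* the log2 difference was -0.11 (standard error 0.23, 95% interval -0.65 to 0.42, adjusted p = 0.948, limma), 0.26 without *Id2*Δ/Δ replicate 2 and -0.49 without *Id2*Δ/Δ replicate 1. Across genes, Pearson's r was 0.942 between the *Id2*Δ/Δ and 0.972 between the *Id2*+/+ libraries, and the part of the neutrophil marker difference in the *Erg* gap was not tested.

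The repressors *Etv6* and *Gfi1b* overlapped between the genotypes. *Etv6* (ENSMUSG00000030199.16, chr6:134035700-134270158, plus strand), an ETS protein needed for HSC survival in adult marrow, had 9.09 and 8.96 log2 CPM in *Id2*+/+ and 8.74 and 8.98 log2 CPM in *Id2*Δ/Δ HSCs. Only *Id2*Δ/Δ replicate 1 was below both controls. Its log2 difference of -0.17 (standard error 0.12, 95% interval -0.45 to 0.10, adjusted p = 0.910, limma) was -0.05 without that library, -0.29 without *Id2*Δ/Δ replicate 2 and -0.11 without *Id2*+/+ replicate 1. *Gfi1b* (ENSMUSG00000026815.14, chr2:28609450-28621982, minus strand), which with LSD1 represses genes in HSCs, megakaryocytes and red cell precursors, had 6.35 and 6.44 log2 CPM in *Id2*+/+ and 6.32 and 6.58 log2 CPM in *Id2*Δ/Δ HSCs. The log2 difference was 0.05 (standard error 0.15, 95% interval -0.29 to 0.40, adjusted p = 0.961, limma), with the sign reversed, at -0.08, without *Id2*Δ/Δ replicate 2. Summed megakaryocyte markers, 7 of 7 with values, were 1543 and 1668 CPM in *Id2*+/+ and 1313 and 1612 CPM in *Id2*Δ/Δ libraries, and summed red cell markers, 6 of 7, were 57.9 and 43.9 against 49.7 and 65.6 CPM. *Gfi1b* was highest in the library with the highest red cell sum, *Id2*Δ/Δ replicate 2. It was next highest in *Id2*+/+ replicate 2, where that sum was lowest. Their relation was not tested.

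**Figure D3:**
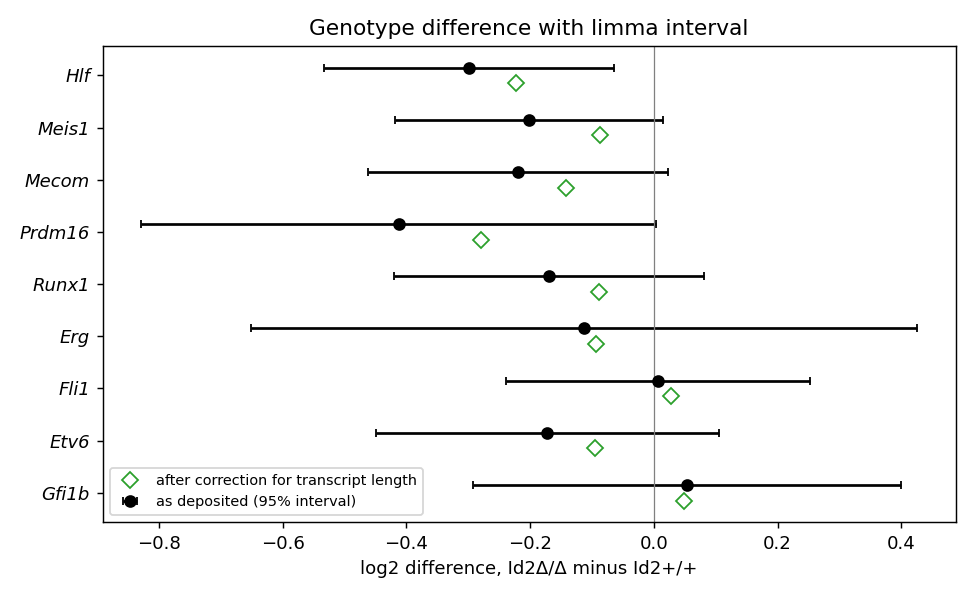
Log2 difference between *Id2*Δ/Δ and *Id2*+/+ HSCs for each gene, with the 95% limma interval, and the value after correction for transcript length as open diamonds. The interval of *Hlf*, -0.53 to -0.06, is the one that leaves out 0, and its corrected value is -0.22.

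The lower values went with transcript length. *Hlf*, *Meis1*, *Mecom*, *Prdm16*, *Runx1* and *Etv6* have longest transcripts of 5642 to 8602 bases and log2 differences of -0.41 to -0.17, while *Erg*, *Fli1* and *Gfi1b*, at 1822 to 3318 bases, had a median of 0.01. The same split appeared among all genes. Of 1571 genes with transcripts of 5000 to 9000 bases and a mean of at least 32 CPM, 69.5% were lower in *Id2*Δ/Δ HSCs and the median log2 difference was -0.08. Of 2872 genes with transcripts of 1500 to 3500 bases at such levels, 36.5% were lower and the median was 0.05. The 6 long members had a median of -0.21. After each library was corrected for transcript length, log2 differences were -0.22 for *Hlf* and -0.28 for *Prdm16*, -0.14 for *Mecom*, and -0.09 for each of *Meis1*, *Runx1* and *Etv6*. The median over the 9 was then -0.09, and *Hlf*, with an unadjusted p of 0.0475 in limma, was the 1 member under 0.05, against 4.24% of all genes. Why the differences went with length was not tested.

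**Figure D4:**
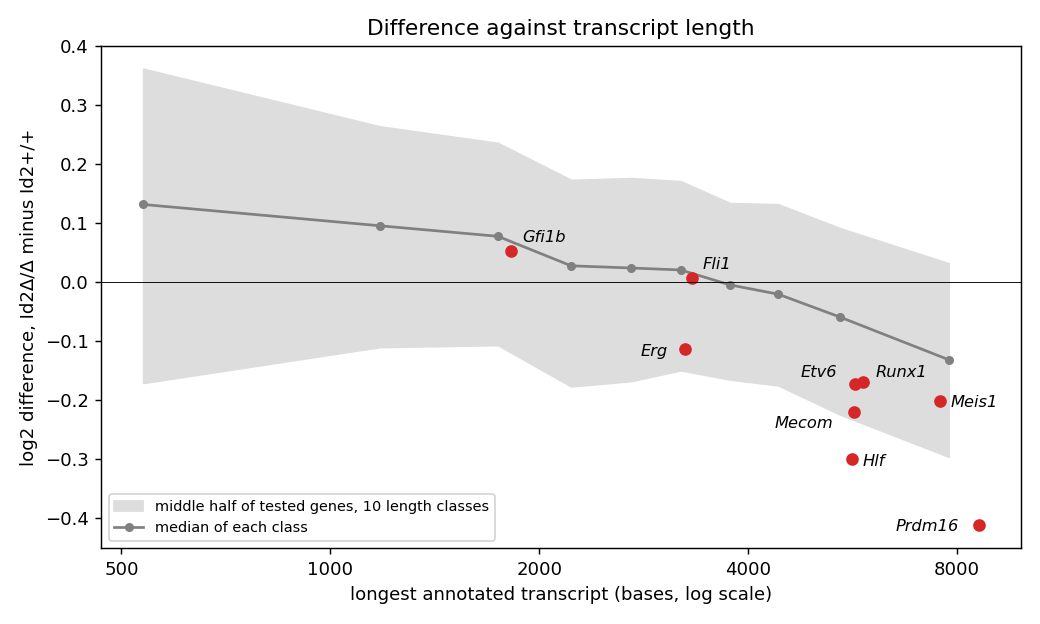
Log2 difference of each of the 9 genes (red) against the length of its longest transcript, over the median (line) and interquartile range (band) of the tested genes in 10 length classes. The class medians run from 0.13 for the shortest to -0.13 for the longest, and the 6 long genes lie lower than these, *Hlf* at -0.30 under the band and *Prdm16* at -0.41 past its long end.

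The libraries labelled B were also compared with those labelled A. None of the 9 had an adjusted p-value under 0.05 for B against A libraries in limma, where 17 genes or 0.107% passed, and none had an unadjusted p-value under 0.05, against 5.0% of all. The median B minus A difference was 0.03 on the log2 scale. *Erg* had the largest, at -0.37 (standard error 0.18, adjusted p = 0.960). *Gfi1b* was at 0.18 and *Fli1* at 0.03, and both their B libraries lay above both A libraries, where libraries did not overlap by letter in 32.9% of all genes.

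The pattern of a gene over the 4 libraries was compared by the Euclidean distance between deviations from the gene mean on the log2 scale. *Meis1* and *Runx1* were each other's nearest member, at 0.06, and *Mecom* lay 0.07 from *Runx1*. *Hlf* and *Etv6* were nearest to *Meis1*, at 0.13 for both. *Prdm16* and *Erg* stood off, 0.36 and 0.43 from their nearest members. Such likeness was common, since 59 tested genes lay closer to *Meis1* than *Runx1* did. Nearest of all genes were *Zfp951* to *Meis1* at 0.013, *Ezr* to *Mecom* at 0.012, *Ndrg3* to *Runx1* at 0.0074 and *Tmem104* to *Hlf* at 0.028. A distance over 4 libraries separates few patterns.

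Partners and relatives of the factors had values on both sides of 0. Of 72 tested genes in 9 lists, 0 had an adjusted p-value under 0.05 in limma and 1 an unadjusted one, *Lin28b*. The genotypes separated, with *Id2*Δ/Δ HSCs on the higher side in 8 and on the lower side in 8, while libraries did not overlap in 34.8% of all tested genes. The median log2 difference of the 72 was -0.04, and 0.02 after the correction for transcript length, which also turned the sign of *Elf2*, *Ncor1* and *Mllt3* among the genes named from these lists, to 0.03, 0.02 and 0.03. *Lin28b*, a fetal HSC regulator, is near the limit of detection here, with 26 and 81 reads in *Id2*+/+ and 0 and 18 reads in *Id2*Δ/Δ libraries.
Among the heptad partners, *Lmo2*, a bridging protein, had 10.02 and 9.91 log2 CPM in *Id2*+/+ and 9.82 and 9.80 log2 CPM in *Id2*Δ/Δ HSCs, a log2 difference of -0.15 (standard error 0.09) without overlap. *Gata2* was at 0.00 (standard error 0.13), with overlapping libraries. *Tal1* and *Lyl1*, bHLH proteins that pair with E proteins and were picked after their values were seen, were at 0.31 and 0.25 (standard errors 0.15 and 0.21), and their libraries did not overlap. Each of these heptad partners had an adjusted p-value of 0.910 or more in limma.
Of the 8 tested partners and relatives of MEIS1, 2 had both *Id2*Δ/Δ values below and 1 above. *Hoxa9*, a homeodomain partner, was at -0.05 (standard error 0.19). *Cbfb*, the partner of RUNX1, was at 0.11 (standard error 0.12), and 0 of the 6 genes of its list separated by genotype. In the ETS family, *Elf1* and *Elf2* were at 0.00 and -0.05, and 3 of 14 genes separated. Of 8 other PRDM genes, 1 separated, *Prdm2*, at -0.32 (standard error 0.16), and *Prdm4* was at -0.27 with overlapping libraries. The PAR bZIP relatives of HLF, *Tef* and *Dbp*, which follow the circadian clock, had log2 differences of -0.39 (standard error 0.24) and -0.22 (standard error 0.29), with overlapping libraries. *Hdac1* and *Hdac2*, which serve GFI1B, were at 0.09 and -0.06, and the corepressors *Ctbp1* and *Ncor1* at -0.03 and -0.12. Of 15 other self-renewal regulators, 2 separated on each side. *Mllt3*, which sustains HSC self-renewal, was at -0.06 and *Mycn* at 0.20 (standard error 0.12).

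**Figure D5:**
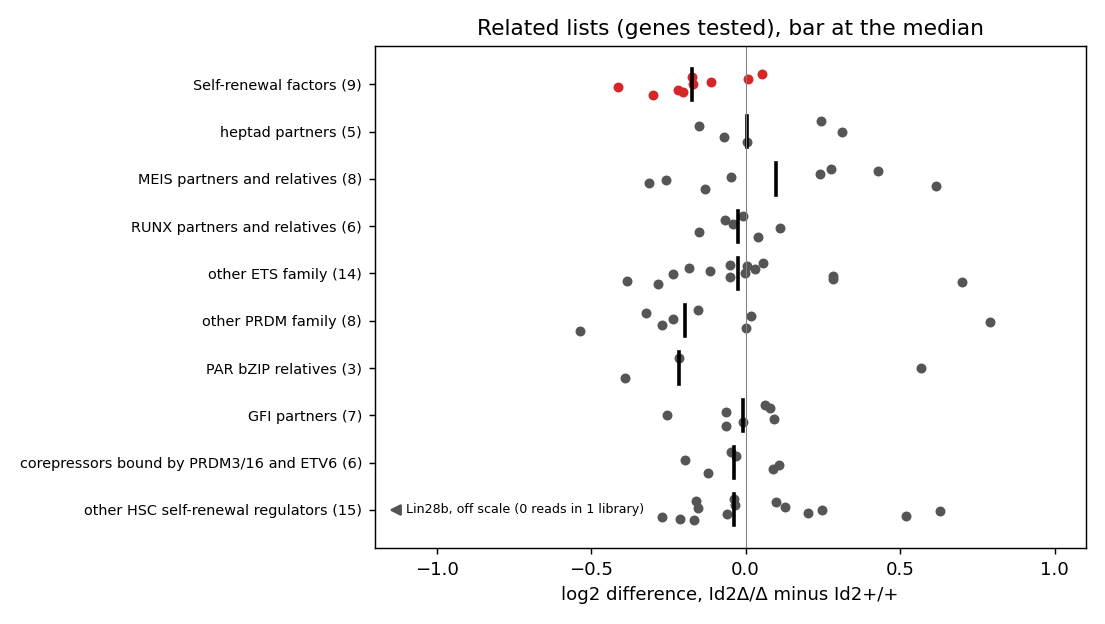
Log2 difference between *Id2*Δ/Δ and *Id2*+/+ HSCs for the 9 factors (red) and the genes of 9 related lists (grey), with a bar at each median. The 9 factors have a median of -0.17, the other lists run from -0.22 to 0.10, and *Lin28b*, with 0 reads in 1 library, is off scale.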

How the data were processed

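RNA-Seq values of 4 libraries of sorted HSCs were analysed. The authors deposited log2 CPM values for 19354 genes. Values taken back from log2 sum to 999980 to 999996 CPM in a library, and at 88.4% of ranks the sorted columns lie within 0.1, the mark of quantile normalization. Per the submitters' processing notes, CASAVA 1.8.4, Trimmomatic 0.30, TopHat2 2.0.8, RSEM and STAR and the builds mm9 and NCBIM37 are named without roles. Strand use and the gene filter are not given in the sources used here.

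The 15895 genes whose mean reached 1 CPM were fitted in limma 3.58.1 (R 4.3.3; lmFit, then eBayes with its trend option) with no term but genotype, two-sided, on the log2 values without a pseudocount, and adjusted over all of them by the Benjamini-Hochberg method. The fit was tested on simulated data. Exact permutation was not used, as its smallest two-sided p here is 0.333. Depth came from the ranks of distinct values below 32 CPM, which count whole reads. Reads of the members are CPM times depth, and are approximate because the CPM values carry the normalization. Floors cover counting error only. GENCODE M21 (GRCm38) gave positions and lengths through the Ensembl IDs. To correct for length, deviations in each library were regressed on log2 transcript length (natural spline, 5 df). Named were the 9 members, *Id2*, from each list the genes with an unadjusted p under 0.05 and the 2 most abundant, and nearest genes. Not all of these are reported here. The members and lists were chosen with earlier results of these data known. Alternatives varied the pseudocount, filter, scaling, trend, block, length, threshold and libraries.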

Additional observations from a re-analysis of the deposited data

How the results depend on the processing

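No member had an adjusted p-value under 0.05 in any of 13 alternative fits. *Hlf*, *Meis1*, *Mecom*, *Prdm16*, *Runx1* and *Etv6* kept a negative log2 difference in all 13. Outside these 13 fits, *Etv6* was at -0.36 between the A libraries alone and at 0.012 between the B libraries alone. The median over the 9 was -0.19 after median-ratio rescaling, -0.093 with the length correction alone or together with the replicate block, and from -0.21 to -0.16 with 1 library left out. It was -0.16 between the B libraries alone. *Fli1* was at -0.0060 after rescaling and from -0.016 to 0.030 with a library left out, *Erg* from -0.49 to 0.26, and *Gfi1b* from -0.079 to 0.19. At an unadjusted p-value under 0.05, 1 member passed as deposited, 1 after the length correction and, with the replicate block, 2, *Hlf* and *Prdm16*, and the related lists gave 1 gene. The unadjusted threshold under the block and the correction, and the values of 1 letter alone, were chosen after seeing the data. The median of the related lists was 0.024 with the length correction and ran from -0.058 to 0.027 and the letter median from -0.095 to 0.10 with a library left out. Of the 9 ranks by level, 3 stayed with the union of exons as length and 4 with no length.

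Same-numbered libraries are not stated to share an experiment, and their deviations had a correlation of 0.0592 over all tested genes and of 0.144 above 32 CPM. The block changed no other call of a member. The cause of these shifts was not tested. With 2 libraries a group, the intervals of the members span about 0.43 to 1.08 on the log2 scale from end to end, which sets the size of difference these libraries can show.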
